A study of Mus musculus with 8 samples.

Results

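A set of 9 genes whose products make, store, clear or respond to the inhibitory transmitter GABA was followed in the hippocampus of adult male mice exposed to bisphenol A (BPA) before weaning and of unexposed males. The genes were picked by symbol from the 24527 rows of the count table: the synthetic enzymes Gad1 and Gad2, the vesicular transporter Slc32a1, the plasma membrane transporter Slc6a11, the breakdown enzymes Abat and Aldh5a1, the GABA-B receptor subunits Gabbr1 and Gabbr2, and Gphn, the scaffold of inhibitory synapses. All 9 were found, and all 9 passed the filter on low counts that left 15434 genes to test. BPA, a building block of plastics, can bind nuclear hormone receptors. The 4 BPA males came from dams fed a low phytoestrogen diet with 50 mg BPA per kg during gestation and lactation, and the 4 control males from dams fed that diet with 0 mg BPA. Every mouse was wild type, on the C57BL/6J background, was weaned on postnatal day 21 onto the control diet, and was 20 weeks old. The series title names depressive-like behaviour and altered neurotransmitters and neuroactive steroids, and the comparison asks which hippocampal transcripts differ in adulthood, long after exposure ended. The sources used here do not give the litters of the males, so a p-value covers only the spread among these 8 animals.

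GABA is made from glutamate by glutamic acid decarboxylase, loaded into synaptic vesicles, and released mainly by interneurons in the hippocampus. It opens chloride channels of the GABA-A type and acts more slowly through the G protein-coupled GABA-B receptor, which works as a pair of unlike subunits. Neurons and astrocytes take it up again, and mitochondrial enzymes degrade it to succinate.

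BPA libraries were deeper than control libraries, with 43.12 to 54.01 M (mega) counts in the 4 BPA libraries against 27.14 to 40.79 M in the 4 control libraries, so exposure and depth cannot be told apart by group. Dentate granule cell markers, 8 genes of a cell type of the hippocampus, summed to 713.3 to 784.8 CPM (reads per M counts of the scaled library) in BPA libraries and 552.9 to 786.9 CPM in control libraries. Striatal and thalamic markers had reads in all 8 libraries too, so having reads does not by itself identify the tissue. Choroid plexus markers, a sign of neighbouring ventricular tissue, summed to 162.7 to 808.5 CPM in BPA libraries and 204.4 to 3045 CPM in control libraries, and control replicate 2 held the highest sum. Interneuron markers other than the genes followed here summed to 1318 to 1371 CPM in BPA libraries and 1275 to 1380 CPM in control libraries. Astrocyte markers summed to 10130 to 11340 CPM in BPA libraries and 11250 to 12820 CPM in control libraries. Most of this sum was Slc1a2, a glutamate transporter (6583 to 7726 CPM in BPA and 7774 to 9299 CPM in control libraries). Of the 14 astrocyte markers, 7 had a higher and 7 a lower estimate in BPA, with a median log2 fold change of 0.0082. In whole hippocampus, fewer cells of a type and less RNA per cell cannot be told apart.

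None of the 9 GABA genes passed the test of a difference between BPA and control hippocampus, and the intervals of their fold changes were narrow. Folds of BPA over control ran from 0.9667 for Gad2 to 1.072 for Gabbr2. The 95% interval of every one of the 9 lay inside 1.2-fold in both directions, as it did for 58.7% of all tested genes. For 6 of the 9 it lay inside 1.1-fold, against 13.4% of all tested genes, which include many with far fewer reads. These intervals belong to the main fit, which cannot tell exposure from depth, and were not computed for the alternatives. With log2 library total as a covariate the log2 fold change of Aldh5a1 was 0.126, against 0.0045 in the main fit. By the quasi-likelihood test of edgeR with Benjamini-Hochberg adjustment over all tested genes, 0 of the 9 passed at an adjusted p of 0.05 and 0 had an unadjusted p under 0.05. Over the whole table the test called 0 genes (0%), 698 had an unadjusted p under 0.05 (4.52%), and DESeq2 called 7, none of them among the 9. BPA and control libraries overlapped for all 9. Over all tested genes 2.79% had groups that did not overlap, a share so low that 0 of 9 does not set these genes apart. The median log2 fold change was 0.0033 over the 9 and 4.9e-05 over all tested genes.

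**Figure D1:**
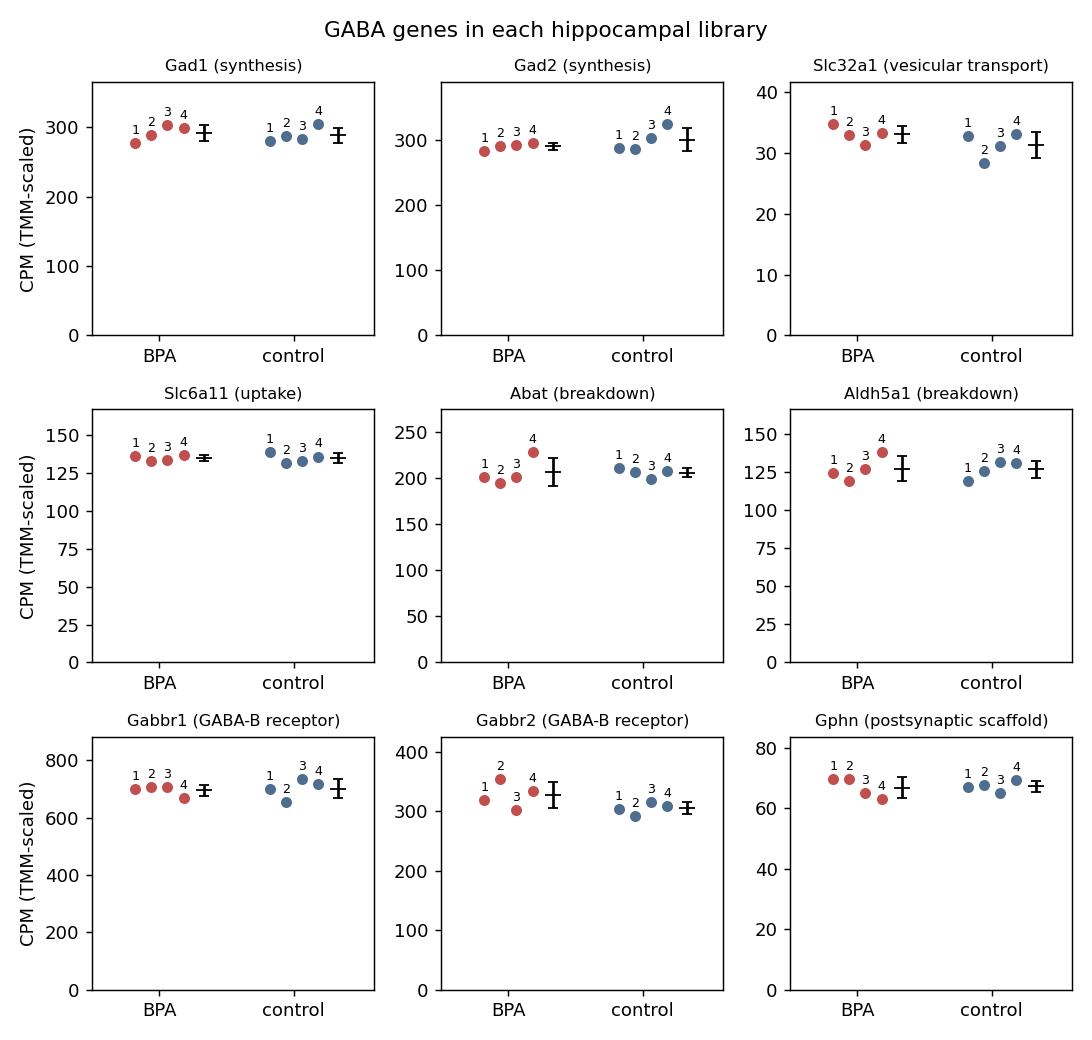
CPM with TMM scaling (a between-library scaling factor of edgeR) for each of the 9 genes, with 1 point per library numbered by replicate, BPA left and control right, and the mean and SD of each group (n = 4) as black bars. The ranges of BPA and control overlap in every panel, with Abat and Aldh5a1 highest in BPA replicate 4 and Slc32a1 lowest in control replicate 2.

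The genes of GABA synthesis, Gad1 and Gad2, had nearly equal read numbers. Gad1, which encodes the larger decarboxylase, found throughout the cell body and processes (mm10 chromosome 2, 70553072 to 70602014, plus strand), had 277.6, 288.9, 303.0 and 299.4 CPM in BPA replicates 1 to 4 and 280.9, 287.2, 282.6 and 304.1 CPM in control replicates 1 to 4. The lowest library was a BPA one and the highest a control one, and 3 of the 4 BPA values lay inside the control range. The means were 292.2 ± 11.4 CPM in BPA and 288.7 ± 10.6 CPM in control mice (SD, n = 4 each), or 1.012-fold (95% interval 0.944 to 1.09; log2 fold change 0.018 ± 0.047 SE; edgeR adjusted p 0.977).

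Gad2, which encodes the smaller decarboxylase, associated with synaptic vesicles (chromosome 2, 22622205 to 22693874, plus strand), had 282.8, 289.6, 291.9 and 295.5 CPM in BPA replicates 1 to 4 and 287.8, 286.0, 302.8 and 323.3 CPM in control replicates 1 to 4. The BPA values were close together, and control replicates 3 and 4 were above all of them. Its means were 289.96 ± 5.36 CPM in BPA and 299.99 ± 17.3 CPM in control mice, or 0.9667-fold (95% interval 0.899 to 1.04; log2 -0.049 ± 0.048; edgeR adjusted p 0.957). Without control replicate 4 the log2 fold change was -0.012.

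The read ratio of Gad1 over Gad2, which does not depend on library scaling, was 0.9817, 0.9976, 1.038 and 1.013 in BPA replicates 1 to 4, against 0.9758, 1.004, 0.9331 and 0.9406 in control replicates 1 to 4. The means were 1.008 ± 0.024 in BPA and 0.9634 ± 0.033 in control mice. The groups overlapped only through control replicate 2, which was above BPA replicates 1 and 2.

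Slc32a1, the transporter that fills synaptic vesicles with GABA or glycine (chromosome 2, 158610767 to 158615748, plus strand), was the weakest of the 9 in reads. It had 34.70, 32.91, 31.30 and 33.37 CPM in BPA replicates 1 to 4 and 32.76, 28.38, 31.12 and 33.08 CPM in control replicates 1 to 4. Control replicate 2, the library with the highest choroid plexus sum, was the lowest and the other 3 controls sat within the BPA range or just under it. Means were 33.07 ± 1.40 CPM in BPA and 31.33 ± 2.15 CPM in control mice, or 1.056-fold (95% interval 0.968 to 1.15; log2 0.079 ± 0.058; edgeR adjusted p 0.955). The log2 fold change was 0.033 without control replicate 2. Per Gad1 read there were 0.1134 ± 0.0090 Slc32a1 reads in BPA and 0.1086 ± 0.0074 in control mice, with a range of 0.1033 to 0.125 in BPA and 0.0988 to 0.1167 in control libraries.

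Slc6a11, a GABA transporter found mainly on astrocytes in rodent brain (chromosome 6, 114131241 to 114249952, plus strand), was the steadiest of the 9. It had 136.1, 133.2, 133.9 and 136.9 CPM in BPA replicates 1 to 4 and 139.2, 131.7, 132.9 and 136.0 CPM in control replicates 1 to 4. All 8 libraries fell within a 1.06-fold span, and the BPA libraries lay inside the span of controls. Its fold was 1.001 with an interval of 0.944 to 1.06 (edgeR adjusted p 0.998). The pooled within-group SD was 0.0285 on the log2 CPM scale, and among the 1000 tested genes nearest to it in level 1.9% had an SD as low or lower. Slc1a2, the astrocytic transporter for glutamate, was at 6979 ± 522 CPM in BPA and 8274 ± 705 CPM in control mice in the same libraries. Its log2 fold change was -0.25 ± 0.061 (unadjusted p 0.00164 and adjusted p 0.955 by edgeR). Its groups did not overlap, as was so for 2.79% of all tested genes. It had the smallest p of the 14 astrocyte markers, of which 7 had a higher and 7 a lower estimate in BPA. By edgeR 1 of the 14 was higher and 1 lower at an unadjusted p under 0.05.

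The breakdown enzymes act one after the other in mitochondria. Abat, GABA transaminase (chromosome 16, 8513429 to 8621568, plus strand), had 201.7, 194.8, 201.6 and 229.0 CPM in BPA replicates 1 to 4 and 210.9, 206.6, 199.1 and 208.4 CPM in control replicates 1 to 4. BPA replicate 4 was above every other library, and the other 3 BPA libraries were at or under the lower part of the control range. Its fold was 1.002 with an interval of 0.925 to 1.09 (log2 0.0033 ± 0.054; edgeR adjusted p 0.995), and the log2 fold change was -0.049 without BPA replicate 4.

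Aldh5a1, succinic semialdehyde dehydrogenase, which oxidises the product of Abat (chromosome 13, 24907579 to 24937661, minus strand), had 124.1, 119.1, 126.6 and 138.2 CPM in BPA replicates 1 to 4 and 119.2, 125.6, 131.1 and 130.6 CPM in control replicates 1 to 4. BPA replicate 4 again stood highest and BPA replicate 2 lowest, as for Abat. The fold was 1.003 with an interval of 0.927 to 1.09 (log2 0.0045 ± 0.052; edgeR adjusted p 0.994), and the log2 fold change was -0.038 without BPA replicate 4. The read ratio of Abat over Aldh5a1 was 1.627 ± 0.027 in BPA mice, from 1.593 to 1.657, and 1.632 ± 0.10 in control mice, from 1.518 to 1.769. The 4 BPA ratios lay inside the control range.

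Of the GABA-B subunits, Gabbr1 binds GABA and Gabbr2 carries the receptor to the cell surface and couples it to G proteins. Gabbr1 (chromosome 17, 37045966 to 37075067, plus strand) had 699.8, 707.7, 708.5 and 668.8 CPM in BPA replicates 1 to 4 and 699.0, 656.4, 736.0 and 717.5 CPM in control replicates 1 to 4. Both the highest and the lowest library were controls. Means were 696.2 ± 18.7 CPM in BPA and 702.2 ± 34.1 CPM in control mice, or 0.9914-fold (95% interval 0.926 to 1.06; log2 -0.012 ± 0.045; edgeR adjusted p 0.981).

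Gabbr2 (chromosome 4, 46662305 to 46991873, minus strand) had the highest estimate of the 9. It had 317.9, 354.3, 301.7 and 334.0 CPM in BPA replicates 1 to 4 and 303.7, 291.3, 315.6 and 309.3 CPM in control replicates 1 to 4. BPA replicates 1, 2 and 4 were above every control library and BPA replicate 3 was below 3 of them. The means were 327.0 ± 22.5 CPM in BPA and 304.98 ± 10.3 CPM in control mice, or 1.072-fold (95% interval 0.989 to 1.16; log2 0.10 ± 0.054; unadjusted p 0.0862 and adjusted p 0.955 by edgeR). By unadjusted p, 1301 of the 15434 tested genes ranked before it. Leaving out BPA replicate 2 gave a log2 fold change of 0.060, and leaving out BPA replicate 3 gave 0.137, with an unadjusted p of 0.025 by edgeR. The adjusted p of Gabbr2 was at least 0.669 under every alternative tried.

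The read ratio of Gabbr1 over Gabbr2 was 2.201, 1.997, 2.348 and 2.002 in BPA replicates 1 to 4, against 2.302, 2.253, 2.332 and 2.320 in control replicates 1 to 4. The mean was 2.137 ± 0.17 in BPA and 2.302 ± 0.035 in control mice, with the larger SD among BPA libraries; the difference in spread was not tested. BPA replicates 1, 2 and 4 were below all controls and BPA replicate 3 above all of them.

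**Figure D2:**
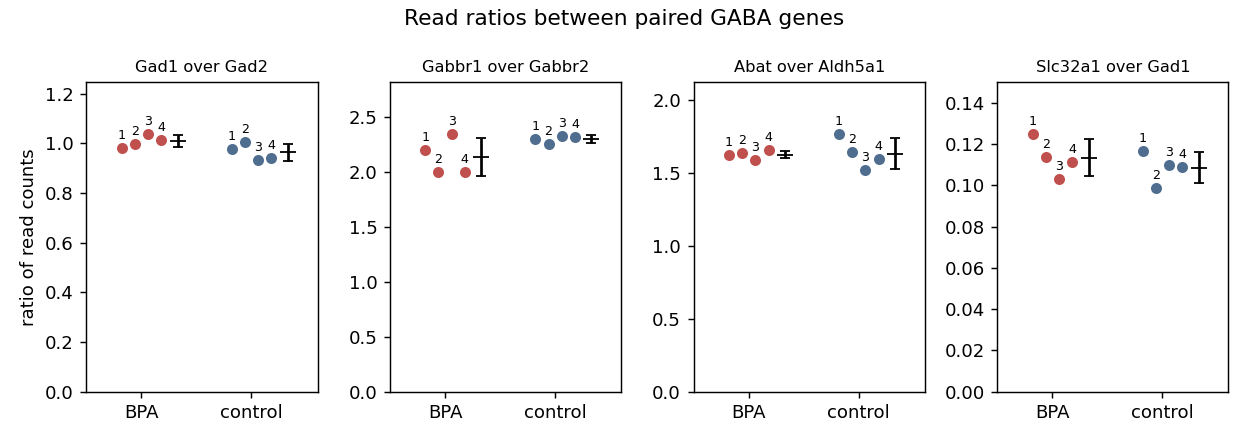
Ratio of read counts between GABA genes of neighbouring roles, 1 point per library numbered by replicate, BPA left and control right, with the mean and SD (n = 4) in black. The groups overlap for all 4 ratios shown, and Gabbr1 over Gabbr2 spans 1.997 to 2.348 in BPA and 2.253 to 2.332 in control libraries.

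Gphn encodes gephyrin, which anchors GABA-A and glycine receptors at inhibitory synapses and also completes synthesis of the molybdenum cofactor (chromosome 12, 78226379 to 78684772, plus strand). It had 69.74, 69.63, 64.98 and 62.96 CPM in BPA replicates 1 to 4 and 66.88, 67.76, 64.95 and 69.47 CPM in control replicates 1 to 4. BPA libraries held both the highest and the lowest values. Its fold was 0.9938 with an interval of 0.926 to 1.07 (log2 -0.0089 ± 0.047; edgeR adjusted p 0.990).

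**Figure D3:**
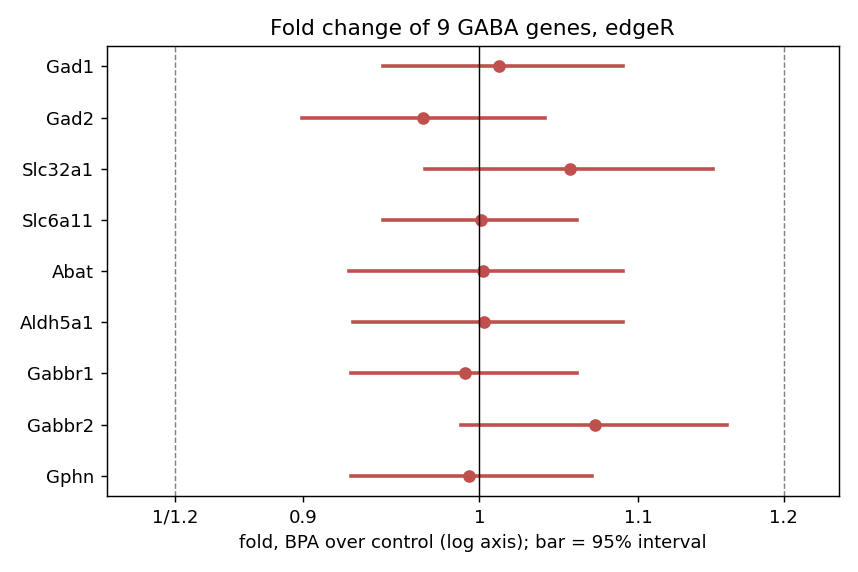
Fold of BPA over control on a log axis for the 9 genes, with the edgeR estimate as a point and its 95% interval as a bar, and dashed lines at 1.2-fold in both directions. All 9 intervals include 1 and stay between the dashed lines, and the interval of Gabbr2, from 0.989 to 1.16, reaches furthest to the right.

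The spread between animals was mostly larger than counting error. Each of the 9 genes had 868 to 37910 reads per library, which gives a counting coefficient of variation of 0.514 to 3.39%, against observed coefficients of 1.31 to 7.34% within BPA and 2.47 to 6.86% within control mice. The exception was Slc6a11 in BPA mice, whose observed 1.31% was no more than the 1.18 to 1.31% that counting gives at its depth. The median pooled within-group SD on the log2 CPM scale was 0.0609 over the 9 and 0.108 over all tested genes. Among genes of like level the 9 were not uniformly steady: the share of neighbours with an SD as low or lower ran from 1.9% for Slc6a11 to 63.3% for Gabbr2. Control replicate 2 gave the lowest CPM of all 8 libraries for 4 of the 9, namely Slc32a1, Slc6a11, Gabbr1 and Gabbr2. BPA replicates 1, 2 and 4 were lowest for 2, 2 and 1 of the 9. Control replicate 2 had the most choroid plexus RNA and also the largest TMM factor, 1.035, which lowers its CPM. The share of all tested genes lowest in that library was not counted, and the part of tissue or scaling was not tested. With control replicate 2 and BPA replicate 3, the libraries highest in choroid plexus markers in each group, both left out, 0 of the 9 passed.

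Per kilobase of exon, with lengths from the basic GENCODE gene models, the receptor subunit Gabbr1 stood highest at 105 ± 2.83 CPM per kb in BPA and 106 ± 5.16 CPM per kb in control mice. Gad1 followed at 66.9 ± 2.62 CPM per kb in BPA and 66.1 ± 2.43 in control mice. Next came Gabbr2 at 56.9 ± 3.91 CPM per kb in BPA and 53.0 ± 1.80 in control mice, and Gad2 at 50.5 ± 0.931 CPM per kb in BPA and 52.2 ± 3.01 in control mice, whose ranges over libraries overlapped. Levels then stepped down, with no overlap between neighbours, through Abat (39.0 ± 2.86 CPM per kb in BPA and 38.9 ± 0.958 in control mice), Slc6a11 (32.7 ± 0.425 in BPA and 32.7 ± 0.814 in control mice), Aldh5a1 (22.5 ± 1.43 in BPA and 22.4 ± 0.981 in control mice) and Gphn (18.2 ± 0.925 in BPA and 18.3 ± 0.511 in control mice). Slc32a1 was lowest at 11.8 ± 0.502 CPM per kb in BPA and 11.2 ± 0.768 in control mice. The order depends on the gene model: with every GENCODE transcript counted into the length, chosen after seeing the data, Gad1 averaged 38.0 CPM per kb over the 8 libraries and ranked below Gad2 (50.2) and Gabbr2 (47.3), and Abat and Slc6a11 were both at 26.7.

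**Figure D4:**
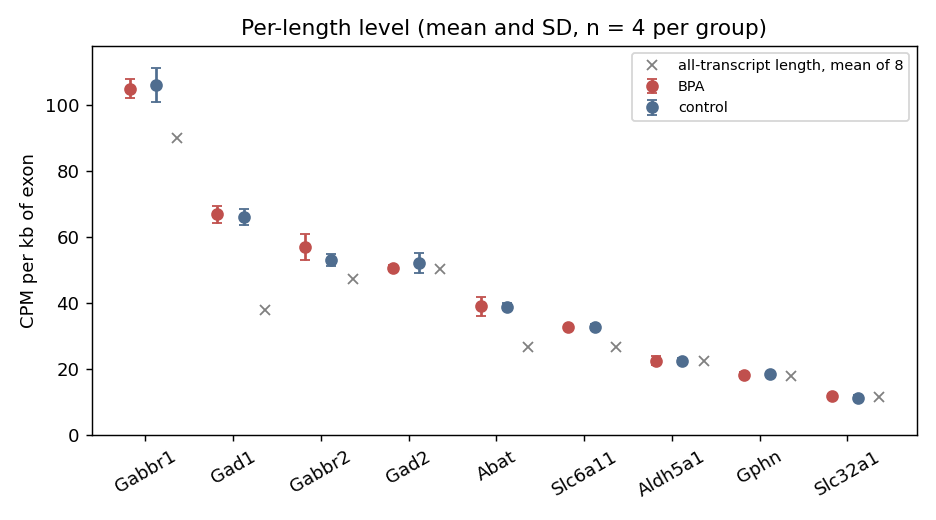
CPM per kilobase of exon for the 9 genes in descending order, with the mean and SD of each group (n = 4), BPA left of control, and a grey cross for the mean of 8 libraries when all GENCODE transcripts set the length. The SD bars of BPA and control overlap for every gene, and the cross for Gad1 falls to 38.0 CPM per kb.

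Across the 8 libraries the 9 genes did not share a single profile. Likeness was measured as the root-mean-square difference of log2 CPM after each gene was centred on its own mean, so 0 would be an identical profile. From each of the 9 to its nearest among them this was 0.049 to 0.0769. That is about the size of their median within-group SD, 0.0609, so the profiles compared are largely small fluctuations. Gad1 and Gad2 were each other's nearest among the 9, at 0.049, but 617 tested genes were closer to Gad1. Aldh5a1 was nearest to Abat among the 9, at 0.0582, with 326 tested genes closer. Outside the 9, the closest gene was Pdha1 for Gad1 (0.0171), Uqcc2 for Slc32a1 (0.0304), Acaca for Slc6a11 (0.0123) and Cisd1 for Abat (0.0235). It was Slc25a33 for Aldh5a1 (0.0204), Magee1 for Gabbr1 (0.0186), Jakmip2 for Gabbr2 (0.0212) and Mdh2 for Gphn (0.0266). The median distance to all tested genes ran from 0.105 for Slc6a11 to 0.132 for Gabbr2. Each closest gene is the smallest of the distances to all tested genes outside the 9, predicted genes left out, and shared regulation was not tested.

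Of the genes that work beside these 9, 0 were called in any of 6 lists. Of 14 tested GABA-A receptor subunits, 0 passed and 0 had an unadjusted p under 0.05 (median log2 fold change -0.026). Gabrd, the subunit of extrasynaptic receptors sensitive to neurosteroids, was at 12.2 ± 0.342 CPM in BPA and 10.9 ± 1.59 CPM in control mice, and Gabrb2, a subunit of synaptic receptors, at 508 ± 12 CPM in BPA and 530.4 ± 20 CPM in control mice.

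Of 20 tested auxiliary subunits and effectors of GABA-B receptors, among them potassium channels and inhibitory G proteins, 0 passed (median -0.034). By edgeR 1 of the 20 had an unadjusted p under 0.05, a share near the 4.52% of all tested genes. That was Kctd12b, an auxiliary subunit of the receptor, at 9.27 ± 0.496 CPM in BPA and 10.8 ± 1.41 CPM in control mice (log2 -0.21 ± 0.092; unadjusted p 0.0401, adjusted p 0.955 by edgeR). Gnai3, an inhibitory G protein alpha subunit, had a log2 fold change of -0.11 ± 0.054. With log2 library total as a covariate the log2 fold changes of Kctd12b and Gnai3 were 0.027 and 0.0033. Every BPA library was deeper than every control library, so these values do not separate depth from exposure.

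Of 19 tested partners of gephyrin and the inhibitory postsynapse 0 passed (median -0.0073), with Nrxn3, a presynaptic adhesion protein, at -0.10 ± 0.058 and Gabarap, which binds GABA-A receptors and takes part in autophagy, at -0.067 ± 0.046 on the log2 scale. Of 8 tested genes of molybdenum cofactor synthesis and its enzymes 0 passed (median -0.016), with 1 at an unadjusted p under 0.05, against 4.52% of all tested genes. That was the aldehyde oxidase Aox1 (3.75 ± 0.415 CPM in BPA and 4.58 ± 0.497 CPM in control mice, log2 -0.29 ± 0.12, unadjusted p 0.0257, adjusted p 0.955 by edgeR). Its relative Aox4, below 1 CPM in both groups, had a log2 fold change of -0.35 (unadjusted p 0.175 by edgeR).

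Of 17 tested genes that supply glutamate and GABA precursors 0 passed (median -0.00066). Slc38a2, a glutamine transporter, had a log2 fold change of -0.18 ± 0.098, or -0.076 without BPA replicate 4. Of 6 tested other GABA and chloride transporters 0 passed (median -0.065). Slc12a5, the chloride exporter of mature neurons, was at 401 ± 14.4 CPM in BPA and 388 ± 13.5 CPM in control mice. Slc12a2, the chloride importer, is also a gene of choroid plexus. Its level was 88.03 ± 9.36 CPM in BPA and 102 ± 22.9 CPM in control mice (log2 -0.21 ± 0.12). The log2 fold change was -0.044 without control replicate 2, the library with the most choroid plexus RNA. It was -0.287 without BPA replicate 3 and -0.121 with both of these libraries left out. The part of choroid plexus in the Slc12a2 values was not tested.

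Single libraries moved some of these log2 fold changes by over 1.5 times: Gabrd was at 0.107 without control replicate 1, Kctd12b at -0.134 and Nrxn3 at -0.044 without control replicate 4, Gabarap at -0.106 and Aox4 at -0.168 without control replicate 1, and Slc12a5 at 0.025 without control replicate 2. With log2 library total as a covariate, Aox4 was at -0.895 (unadjusted p 0.0208, adjusted p 0.998 by edgeR) and Slc12a2 at -0.349, while Gabrb2 was at -0.013, Nrxn3 at -0.034 and Slc12a5 at 0.0057. Here too the covariate does not separate depth from exposure.

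Marker lists of the cells and regions that a hippocampal dissection can hold gave 0 calls in any list. Of the 107 tested markers, 3 had a higher and 7 a lower estimate in BPA at an unadjusted p under 0.05 by edgeR, against 4.52% of all tested genes in either direction. These were 2 higher and 1 lower of the interneuron, 1 higher and 1 lower of the astrocyte, 3 lower of the oligodendrocyte, 1 lower of the endothelial and pericyte and 1 lower of the ependymal markers. The groups did not overlap for 3 of the 107 markers, a share near the 2.79% of all tested genes. Each was lower in BPA, namely Slc1a2, the oligodendrocyte gene Ermn (79.1 ± 2.67 CPM in BPA and 86.5 ± 4.24 CPM in control mice) and the pericyte gene Rgs5 (129 ± 8.32 CPM in BPA and 146 ± 5.66 CPM in control mice). Estimates were higher in BPA for 13 of 20 interneuron, 7 of 14 astrocyte, 5 of 11 excitatory neuron, 8 of 8 dentate granule cell, 3 of 9 oligodendrocyte, 3 of 8 microglia, 4 of 7 endothelial and pericyte, 0 of 9 choroid plexus, 0 of 6 ependymal, 5 of 9 striatal and 2 of 6 thalamic markers, against 50.0% of all tested genes. None of these markers was at 0 reads in any library. Median log2 fold changes were 0.029 for interneuron and 0.0082 for astrocyte markers, 0.19 for dentate granule cell markers, -0.47 for ependymal and -1.2 for choroid plexus markers. Without control replicate 2 the choroid plexus median was 0.6, with 8 of 9 markers higher, and the ependymal median -0.15, with 1 of 6 higher. The interneuron median was -0.0068 without that library, with 9 of 20 higher, and the astrocyte median -0.0095, with 7 of 14 higher. The dentate granule cell median was 0.28 without it, with 8 of 8 higher. Sums of the dentate markers were 552.9 and 604.5 CPM in control replicates 1 and 4 and 754.8 and 786.9 CPM in control replicates 2 and 3, so the low dentate values came from control replicates 1 and 4. The part of these cells in the values of the 9 genes was not tested.

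**Figure D5:**
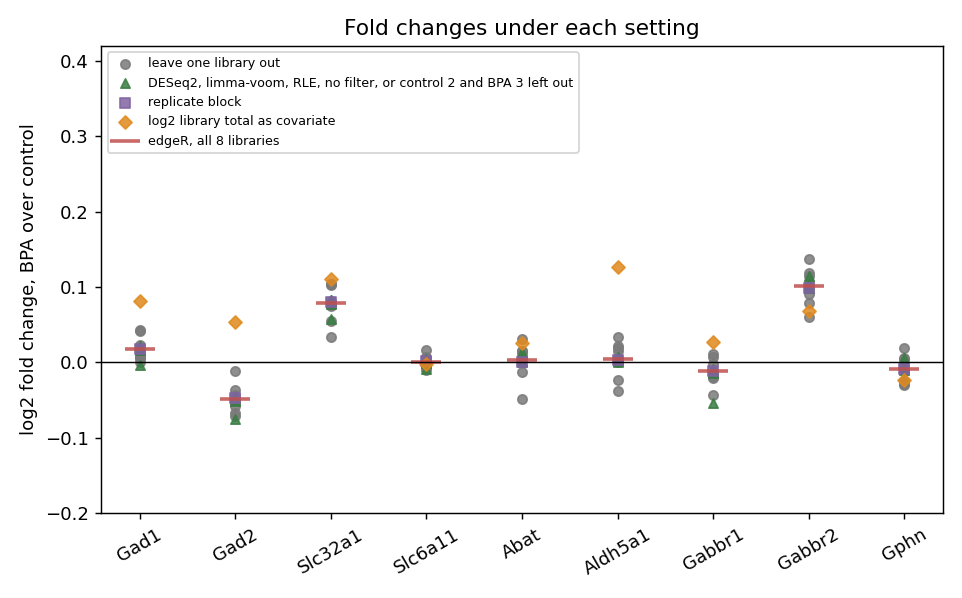
Log2 fold change of BPA over control for the 9 genes under every setting tried, with edgeR on all 8 libraries as a red line and 1 symbol per alternative. Values stay between -0.076 and 0.137, and those with log2 library total as a covariate (orange) differ most for Aldh5a1, at 0.126.

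Some of the counts could include or lose reads of an overlapping gene, since the sources used here do not say whether reads were counted by strand. In GENCODE, exons of Slc32a1 share 697 bases with an antisense gene. Exons of Aldh5a1 share up to 796 bases and exons of Gphn 147 bases with genes on the opposite strand. The genes that overlap Aldh5a1 have rows of their own in the count table, and those that overlap exons of Slc32a1 and Gphn do not. The antisense gene that spans part of Gad1 shares 0 exonic bases with it. Nrxn3, Aox4, Pdha1, Slc25a33, Slc1a2 and Ermn also share exonic bases with an opposite-strand gene. Isoforms of a gene, such as those of Gad1 and Gabbr1, are summed in its row.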

How the data were processed

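Total RNA from hippocampus was selected for polyadenylated RNA and made into stranded ScriptSeq v2 libraries, per the labels' protocols. The authors deposited 1 table of raw counts, whole numbers of reads by gene symbol with no normalization. The tools were featureCounts 1.5.0, STAR 2.3.0e, Trimmomatic 0.32 and DESeq2 (no version) on mm10, per the submitters' processing notes. Columns were matched to samples by the library code in the titles. Genes were filtered with filterByExpr, scaled by TMM and tested in edgeR 4.0.16 under R 4.3.3 by quasi-likelihood, with group as the only term, two-sided, adjusted over all 15434 tested genes at 0.05. Standard errors and 95% intervals were derived from the test statistic. Log2 CPM used a prior count of 2. The test was checked on simulated counts. The 12 within-group pairs of libraries differed beyond sampling noise (chi-square per degree of freedom 10 to 24.8). Alternatives were RLE scaling, no filter, DESeq2 1.42.0, limma-voom (limma 3.58.1), a replicate block, log2 library total as a covariate, each library left out, and control replicate 2 with BPA replicate 3 left out. Positions and exon lengths came from GENCODE vM21 (mm10). The 9 genes and all lists were chosen with earlier results of these data known. Named genes are the 9, the 2 smallest p of each pathway list, and the nearest profile of each of the 9 without predicted genes, of which 2 are not reported here; Slc1a2, Ermn and Rgs5 were named after their values were seen.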

Additional observations from a re-analysis of the deposited data

Results flagged for a closer look

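Of 66 groups of 4 libraries checked for a library far from the other 3, 3 stood out, and about 1 in 20 such groups does so by chance. BPA replicate 2 had a total of 54.01 M (mega) counts against 43.12 to 44.003 M in the other BPA libraries. Of all libraries it held the highest Gabbr2 value and the lowest Abat and Aldh5a1 values. In control replicate 2 the choroid plexus markers summed to 3045 CPM against 204.4 to 299.8 CPM in the other controls. In control replicate 3 the genes of molybdenum cofactor synthesis and its enzymes summed to 49.07 CPM against 54.06 to 54.97 CPM in the other controls. None of the 9 GABA genes or their ratios had such a library in either group.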

How the results depend on the processing

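None of the 9 genes passed the threshold under any of the 15 alternatives. Of 135 values, 113 kept their sign and 22 reversed it. Slc32a1 and Gabbr2 kept their sign under all 15 alternatives, and each of the other genes reversed under some. Slc6a11 reversed most, under 8 of the 15, followed by Gphn under 4 and Gabbr1 under 3. Across all tested genes the count of calls was 0 under each edgeR and limma-voom setting and 7 with DESeq2, whose base was 20749 genes without the filter. With RLE scaling Slc6a11 was at -0.0014 on the log2 scale, and with DESeq2 at -0.00024. With log2 library total as a covariate Gad2 was at 0.053, Slc6a11 at -0.003, Gabbr1 at 0.027, Kctd12b at 0.027, Gnai3 at 0.0033 and Gabarap at 0.036. Without control replicate 2 and BPA replicate 3 together, Gad1 was at -0.0042, Slc6a11 at -0.0087 and Gphn at 0.0062. The cause was not tested. Leaving out 1 library gave log2 fold changes of -0.00023 to 0.043 for Gad1, -0.071 to -0.012 for Gad2, 0.033 to 0.104 for Slc32a1, -0.011 to 0.016 for Slc6a11, -0.049 to 0.031 for Abat, -0.038 to 0.034 for Aldh5a1, -0.043 to 0.011 for Gabbr1, 0.06 to 0.137 for Gabbr2 and -0.03 to 0.019 for Gphn. Leaving out 1 library kept 0 genes called, with 354 to 1167 at an unadjusted p under 0.05 (without BPA replicate 2 and without control replicate 3). Estimates were higher for 6 and lower for 3 of the 9 genes, 5 and 4 with RLE scaling or DESeq2, and 7 and 2 with the depth covariate. With the replicate block 0 genes passed and 498 had an unadjusted p under 0.05. Same-numbered libraries did not deviate together (r of deviations across genes -0.123, -0.372, -0.295 and 0.0702). Libraries of unlike number reached 0.322 (BPA replicate 3 and control replicate 2), so this check cannot show whether the numbers mark pairs. The main fit did not pair them. Depth limits Slc32a1 most, with 868 reads in the shallowest library.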
